A study of Mus musculus with 8 samples.

Results

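The genes described here are 10 mouse genes of the red cell lineage: the transcription factors Klf1 and Gata1, the erythropoietin receptor Epor, the carbonic anhydrases Car1 and Car2, the transferrin receptor Tfrc, the heme enzyme Alas2 and the globins Hba-a1, Hbb-bs and Hbb-bt. They were taken by symbol from the 27998 genes of the deposited count matrices, and all 10 symbols were present. Their levels were compared between time points in Klf1-positive cells, defined as cells with at least 1 UMI (unique molecular identifier, a count of captured transcripts) of Klf1. Of 10046 cells kept, 1987 were Klf1-positive.

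The cells came from the bone marrow of wildtype C57Bl/6 mice aged 12 to 14 weeks and had been sorted as LK cells, with further LK CD150+ CD48- CD34- cells (HSCs) added to enrich the stem cells. IFNα was given subcutaneously at 50000 IU for every 20 g of mouse, and marrow was taken 3, 24 or 72 h later; control mice were given 100 µl of PBS. The 4 mice of each time point were told apart by 4 hashtag antibodies and shared 1 of the 4 libraries, so that the time point and its library cannot be told apart. The sort was made on bone marrow progenitors, so reticulocytes and other late red cell stages were not its target.

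Red cells arise from progenitors in which GATA1 switches on erythroid genes and KLF1 binds CACCC elements of globin and other erythroid promoters. Signals from the erythropoietin receptor keep these progenitors alive and dividing. As they mature, the transferrin receptor brings in iron, ALAS2 makes the first intermediate of heme, and alpha and beta globin chains join heme to form hemoglobin. Carbonic anhydrases, which convert carbon dioxide and bicarbonate, are among the abundant proteins of the lineage, and CAR1 appears early in committed progenitors. Type I interferon is known to suppress red cell production.

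The 3 globin genes are shown with the part of their promoters in which the CACCC element, bound by KLF1 in adult beta globin promoters, and the CCAAT box lie. The sequences are RefSeq windows on GRCm38.p6, written 5′ to 3′ on the strand of the gene, and each holds the CACCC element, the CCAAT box or both in capitals. In the Hbb-bt window the capitals also mark ATTGG, which is CCAAT on the other strand.
Hba-a1, chr11:32283577-32283606, plus strand: aaaccagCCAATgagaactgctccaagggc
Hba-a1, chr11:32283607-32283636, plus strand: gtgtcCACCCtgcctggaggacacgccctt
Hbb-bs, chr7:103827994-103828023, minus strand: agccaCACCCtggtaagggCCAATctgctc
Hbb-bt, chr7:103813989-103814018, minus strand: gggtaaCACCCtggcATTGGCCAATctgct
Counted from the RefSeq transcript start, with -1 as the base before it, the marked CACCC begins at -60 in Hba-a1, -90 in Hbb-bs and -89 in Hbb-bt. The letters CACCC are common: 52.0% of 32851 windows of 250 bases before a RefSeq start held them on either strand, and 33.8% held CCAAT. The longer CCACACCC, which contains CACCC, was found in 3.20% of windows and, among the 3 globin genes, only in Hbb-bs, at -93. Klf1 itself held CACCC at -114, AGATAA or TGATAA on the other strand at -80 and CCAAT at -64. AGATAA or TGATAA, the letters that GATA factors bind, were in 16.6% of windows, and were also found for Epor at -54, Alas2 at -86, Hba-a1 at -183 and Hbb-bs at -210. Promoters of Car1 and Car2 were not analysed here.

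By the GENCODE annotation of GRCm38, Klf1 spans chr8:84901928-84905291 on the plus strand and Gata1 chrX:7959260-7978071 on the minus strand. Epor lies at chr9:21958897-21963506 on the minus strand, and Tfrc at chr16:32608920-32632794 on the plus strand. Car1, at chr3:14766216-14808368 on the minus strand, and Car2, at chr3:14886273-14900770 on the plus strand, are neighbours. Alas2 is X-linked, at chrX:150547375-150570638 on the plus strand. The alpha globin gene Hba-a1 lies at chr11:32283511-32284465 on the plus strand, and the beta globin genes Hbb-bs, chr7:103826534-103828096, and Hbb-bt, chr7:103812524-103813996, lie side by side on the minus strand. Globin copies share sequence, the alpha pair more than the beta pair. Of 50-base windows in the last 300 bases of the Hba-a1 transcript, 80.1% also occur in Hba-a2, and 36.7% of those of Hbb-bs in Hbb-bt. Reads of one copy can therefore be lost or given to the other, and the values of single globin genes are uncertain to that extent.

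The libraries held 3190, 2454, 4346 and 3320 barcodes at control, 3, 24 and 72 h, of which 2474, 1661, 3462 and 2449 were kept. Between 1 and 2 kept barcodes of a library also occurred among those kept from another. The kept cells of a mouse held between 1102706 and 26446327 UMIs. Control mouse 4 gave 58 kept cells, 15 of them Klf1-positive, so its values rest on few cells. Klf1-positive cells had medians of 18870.5, 13090, 20276 and 14903 UMIs in the order of the time points. All 10 genes of an interferon check list were higher at 3 h in Klf1-positive cells and 8 were higher at 24 h, while none passed at 72 h (edgeR quasi-likelihood test, adjusted p under 0.05). Isg15, an interferon-induced ubiquitin-like protein, averaged 18.2, 2275, 114 and 23.3 CPM in the order of the time points, where CPM are UMIs per 1000000 UMIs of a mouse's Klf1-positive cells, scaled by TMM factors. Irf7, a transcription factor of the interferon response, averaged 7.55, 410, 68.4 and 8.29 CPM.

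Klf1-positive cells were concentrated in some clusters. Among 15 clusters of the control cells, built without the 10 genes, clusters 10 and 12 carried erythroid markers and are called erythroid progenitor-like. The naming did use the 10 genes, which are all in the erythroid marker list. Markers leading cluster 10 were Car1 and Klf1, and besides them Ermap, Aqp1 and Blvrb. Those leading cluster 12 were Hba-a1, Hbb-bs and Hbb-bt, and besides them Cldn13, Rhd and Ermap. Klf1-positive cells made up 98.4% of the 244 cells of cluster 12, 86.7% of the 547 cells of cluster 10, 68.6% of cluster 11 and 54.8% of cluster 13, both unnamed. Cluster 6, led by the cell division genes Nusap1, Mki67 and Top2a, held 35.8%. Of all Klf1-positive cells, 23.9% lay in cluster 10, 15.8% in cluster 11, 13.9% in cluster 6, 12.1% in cluster 12 and 10.1% in cluster 4, which is megakaryocyte (MK) progenitor-like. The Klf1-positive cells are therefore a mixture in which the erythroid progenitor-like clusters hold fewer than the others together.

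In control mice the regulators were graded across clusters. Levels by cluster are UMIs per 1000000 of all UMIs of a mouse's cells in the cluster. They include cells without a Klf1 UMI, use no TMM factors and need at least 3 cells of the mouse. Klf1 stood at 302 ± 16.5 CPM (SD, n = 3 mice) in cluster 12, 199 ± 24.7 (n = 4) in cluster 10, 137 ± 39.3 (n = 3) in cluster 13 and 130 ± 42.3 (n = 4) in cluster 11. Clusters 13 and 11 differed by less than their spread, and the next cluster, 6, stood at 40.5 ± 30.6. Gata1 reached further down the order: 150 ± 17.8 CPM in cluster 12, 130 ± 25.7 in cluster 10 and 129 ± 17.2 in cluster 11 overlapped, and it was still 77.2 ± 22.3 in the MK progenitor-like cluster 4 and 51.3 ± 14.0 (n = 3) in the basophil, mast cell and eosinophil (Ba/MC/Eo) progenitor-like cluster 15. GATA1 is known to act in these lineages too. Epor was highest in cluster 12, at 107 ± 12.4 CPM, followed by 48.5 ± 14.7 in cluster 10 and 39.1 ± 19.1 in cluster 11, which overlapped.

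The effector genes split the erythroid progenitor-like clusters in another way. Car1 did not separate them, with 4854 ± 126 CPM in cluster 10 and 4788 ± 734 in cluster 12, against 1776 ± 666 in cluster 11. Car2 did, with 3468 ± 467 CPM in cluster 12 and 1448 ± 343 in cluster 10, and it was widespread elsewhere, with 944 ± 291 in cluster 8 and 807 ± 103 in cluster 4. Tfrc stood at 140 ± 32 CPM in cluster 12, above all other clusters, of which cluster 1, a myeloid progenitor-like one, came next with 35.6 ± 4.86. Hba-a1 averaged 694 ± 553 CPM in cluster 12 and 8.23 ± 9.75 in the next cluster, and Hbb-bs 599 ± 557 against 18.0 ± 29.1. For the globins the spread among the 3 control mice with cluster 12 levels was close to the mean, from 66.8 to 1111 CPM for Hba-a1.

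**Figure D1:**
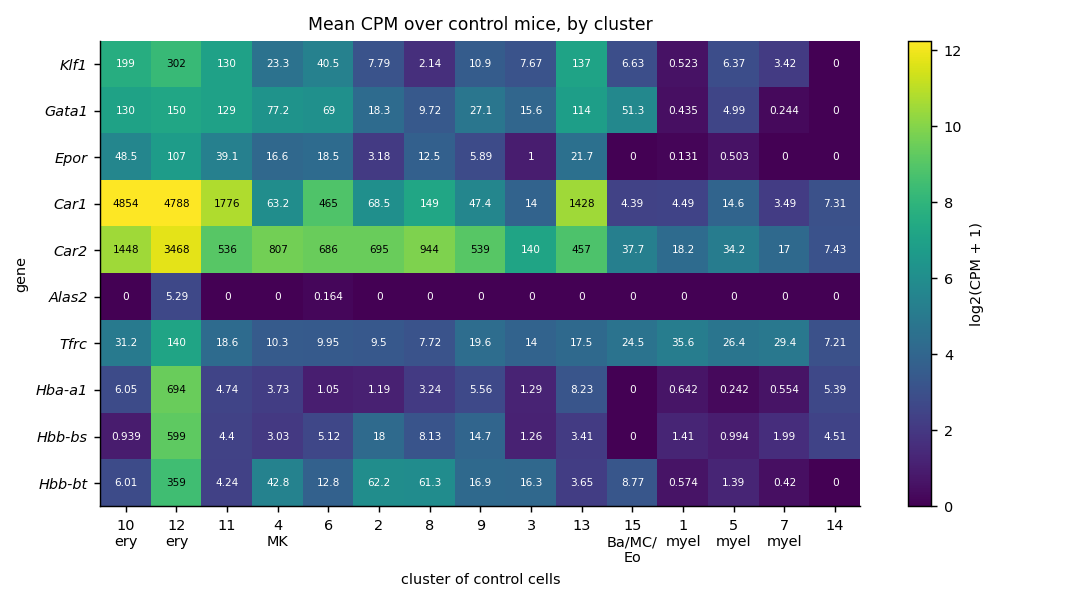
Mean level of each of the 10 genes in each of the 15 clusters of control cells, averaged over mice, with CPM in each field and log2(CPM + 1) as its colour. Klf1, Epor, Tfrc, Alas2 and the globins are highest in cluster 12, Car1 is alike in clusters 10 and 12, and Hbb-bt has further values in clusters 2, 4 and 8.

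Over the 15 control clusters, the genes whose log2 CPM was most like that of Klf1 among 7982 genes were Gm15915 (Pearson r = 0.963), Tspo2 (0.961), Abcb4 (0.952), Col5a1 (0.941) and Atp1b2 (0.938). Tspo2 encodes an erythroid relative of the translocator protein. Among the other genes described here, Gata1 and Car1 each had r = 0.932 and Epor 0.916, while Car2 had 0.788, Hba-a1 0.589, Hbb-bt 0.420, Hbb-bs 0.412 and Tfrc 0.410. The clusters share 1 library, so these are descriptions of 15 points.

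Detection per cell set the erythroid signal against RNA from other sources. Of 714 Klf1-negative myeloid progenitor-like control cells (median 33779.5 UMIs), cells that should lack these genes, 1.82% had a UMI of Gata1 and 0.420% of Epor, against 77.8% and 49.2% of the 490 Klf1-positive control cells at a lower median depth. Car1 was seen in 14.6% and 75.1%, and Car2 in 43.8% and 94.3%. Tfrc, which dividing cells of many types use, was seen in more of the myeloid progenitor-like cells (50.7%) than of the Klf1-positive cells (40.6%), which were less deeply sequenced. Per UMI it stood at 51.8 ± 27.5 CPM in Klf1-positive control cells and at 22.3 ± 5.0 in all Klf1-negative ones (SD, n = 4), with overlapping values. Hba-a1 was detected in 16.3% of Klf1-positive and 1.82% of these Klf1-negative cells, Hbb-bs in 11.2% and 3.5%, and Hbb-bt in 16.1% and 2.38%. Most Klf1-positive cells had no UMI of any one of these globins.

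The share of Klf1-positive cells among kept cells was close to control at 24 h and 72 h, and lower on average at 3 h without passing the test. It was 17.3%, 20.5%, 21.2% and 25.9% in control mice 1 to 4, and 14.5%, 20.2%, 15.5% and 14.2% in the mice at 3 h. The means were 21.2% ± 3.53 in control and 16.1% ± 2.79 at 3 h (SD, n = 4 each), and 3 of the 4 mice at 3 h lay below all controls (difference -5.11 percentage points, two-sided exact permutation test p = 0.0571, 0.171 adjusted over 3 time points). At 24 h the mean was 20.9% ± 2.98 and at 72 h 20.9% ± 1.95, each with an adjusted p of 0.914 (exact permutation test). The smallest p that 4 against 4 mice allow is 0.0286. With each cell thinned to 5000 UMIs, which removes the difference in depth, the difference at 3 h was -3.41 percentage points. That leaves out 35, 61, 35 and 68 shallower cells of the libraries in order of time. Clusters 2 and 8 hold the stem cell gene Hlf among their leading genes, beside Wfdc17 and Dntt in cluster 2 and B cell genes in cluster 8. Cluster 9 also holds Hlf among its leading genes and was kept. Outside clusters 2 and 8 the difference at 3 h was -2.57 percentage points (exact permutation test p = 0.429, 0.643 adjusted). These shares also move with the number of HSCs added to the sort.

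**Figure D2:**
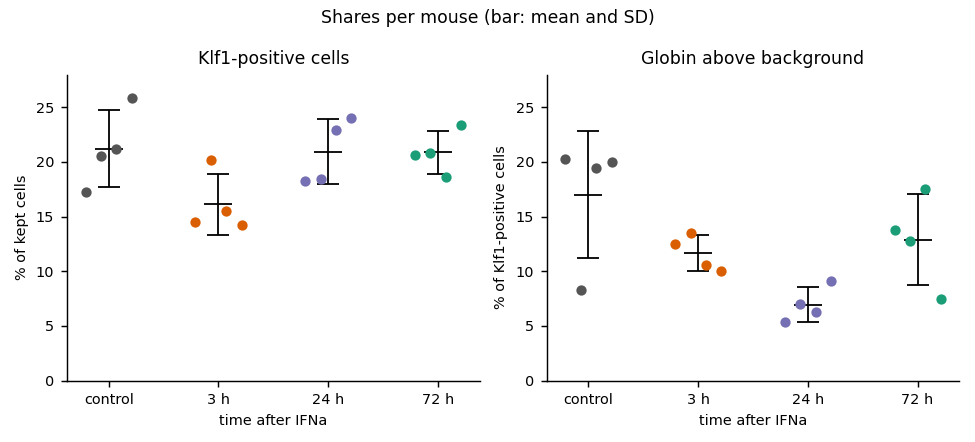
Percent of kept cells that were Klf1-positive (left) and percent of Klf1-positive cells with globin above the background of their library (right), by time point. Points are mice and bars the mean with SD (n = 4 mice each); the globin shares at 24 h, 5.36% to 9.09%, lie within or below the control range of 8.28% to 20.3%.

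Among Klf1-positive cells, the globins fell at all 3 time points, and at 24 h Epor, Car1, Car2 and Tfrc were lower as well. Of the 8 tested genes other than Klf1, 7 passed 24 h after IFNα, all of them lower, and the 3 globins alone passed 3 h and 72 h after it. The background at the 3 times in order is that 17.3%, 12.9% and 10.7% of 9546 genes passed, with 6.38%, 5.45% and 4.71% passing as lower and 10.9%, 7.49% and 6.02% as higher. Alas2 had too few UMIs to be tested, and the level of Klf1, which chose the cells, was not tested in them. The 3 comparisons share their control mice. In counts summed over such a mixture, fewer cells of a type and less RNA per cell cannot be told apart, and both enter the values that follow.

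**Figure D3:**
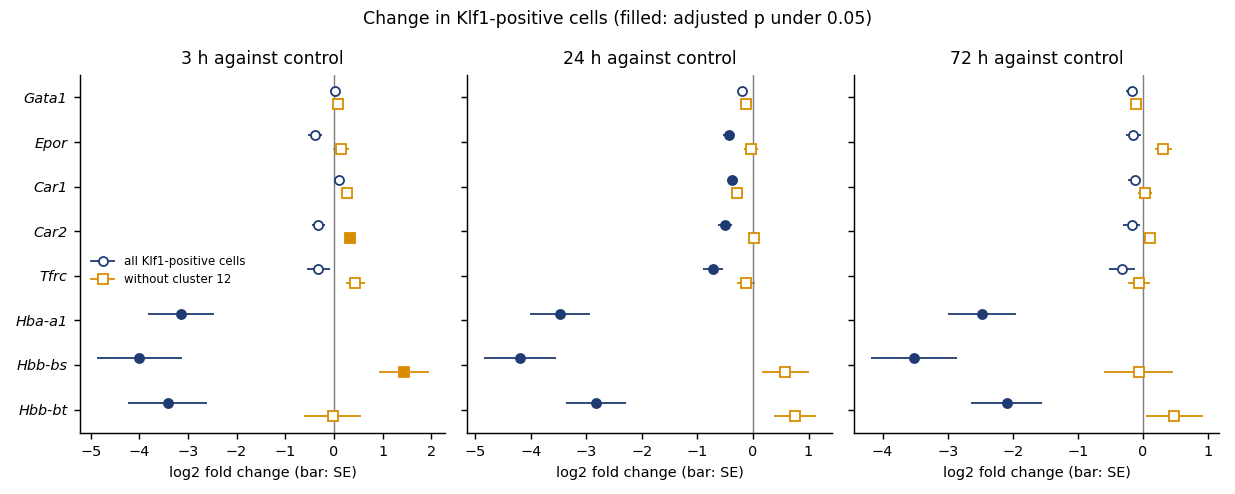
Log2 fold change against control with its standard error (edgeR) for the 8 tested genes at 3, 24 and 72 h, in all Klf1-positive cells (circles, 16 mice) and without those of cluster 12 (squares), with filled symbols at an adjusted p under 0.05. In all Klf1-positive cells the 3 globins pass as lower at every time point and Epor, Car1, Car2 and Tfrc at 24 h, and without cluster 12 no gene passes as lower; Hba-a1 is not tested there.

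Klf1 itself, as a description of the cells it chose, stood at 202, 175, 216 and 183 CPM in control mice 1 to 4, 182, 184, 193 and 153 at 3 h, then 135, 125, 155 and 143 at 24 h and 153, 167, 175 and 160 at 72 h. Every mouse at 24 h and at 72 h lay below every control mouse, at 72 h narrowly, with 175.0 CPM in mouse 3 against 175.5 in control mouse 2. Since Klf1 chose these cells and their depth differed between libraries, this order is no test of a fall. A test that does not require a Klf1 UMI in each cell is open in all cells of the erythroid progenitor-like clusters. Klf1 was left out of the clustering but is among the markers that named these clusters. There, control mice 1 to 3 had 247, 234 and 265 CPM, and control mouse 4 had too few cells. The mice at 3 h had 217, 213, 209 and 146, those at 24 h 151, 165, 188 and 170, and those at 72 h 189, 180, 208 and 205, all below the lowest control. Klf1 fell in these cells by 0.33 ± 0.11 on the log2 scale at 3 h (adjusted p = 0.0364), by 0.56 ± 0.09 at 24 h (5.67e-05) and by 0.35 ± 0.09 at 72 h (0.0243; log2 fold change ± SE, edgeR quasi-likelihood test). In that fit 13.1%, 12.2% and 5.01% of genes passed. In the sums of all kept cells it fell by 0.43 at 3 h and by 0.43 at 24 h (adjusted p = 0.0427 and 0.0242, edgeR), and at 72 h its log2 fold change was -0.23 (0.234). In those sums 38.8%, 28.3% and 37.4% of 12042 genes passed. Cluster 12, where Klf1 is highest, was 30 of 63, 21 of 61 and 32 of 84 erythroid progenitor-like cells in control mice 1 to 3. At 24 h it was 15 of 57, 16 of 84, 20 of 60 and 23 of 88, and at 3 h and 72 h the parts overlapped those of control. Single clusters were also fitted, as given below for other genes. The change of Klf1 in those fits is not reported here, so no part of its fall is assigned to this mixture.

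Gata1 moved less. Its CPM in Klf1-positive cells was 131, 102, 131 and 103 in control mice 1 to 4, 131, 118, 117 and 121 at 3 h, then 110, 97.9, 110 and 102 at 24 h and 105, 104, 110 and 106 at 72 h. The groups overlapped at every time point. The log2 fold change was 0.01 ± 0.09 at 3 h, then -0.20 ± 0.08 at 24 h and -0.18 at 72 h (adjusted p = 0.968, 0.11 and 0.185, edgeR). Leaving out control mouse 2 alone took Gata1 past the threshold at 24 h (-0.30, adjusted p = 0.00856, edgeR) and 72 h (-0.28, 0.0209).

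The receptor Epor stood at 66.1, 53.1, 58.3 and 51.7 CPM in control mice, 40.3, 39.3, 52.9 and 45.1 at 3 h and 38.9, 38.9, 48.2 and 47.7 at 24 h. It was then 49.5, 56.0, 63.8 and 43.5 CPM at 72 h. All 4 mice at 24 h were below the lowest control and 3 of 4 at 3 h, and 2 of 4 at 72 h. The log2 fold change was -0.38 ± 0.14 at 3 h (adjusted p = 0.0701), -0.43 ± 0.11 at 24 h (0.0113) and -0.15 at 72 h (0.456; edgeR). A two-sided exact permutation test of the 4 against 4 values at 24 h, on log2(CPM + 1), gave p = 0.0286, the smallest it can give. Such tests of single genes were not adjusted for their number. The call at 24 h was lost without control mouse 1 (-0.35, adjusted p = 0.082) and without the 24 h mouse 2 (-0.38, adjusted p = 0.0565, edgeR).

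The carbonic anhydrases both fell at 24 h. Car1 was at 3081, 3021, 3078 and 2842 CPM in control, 2923, 2973, 3849 and 3228 at 3 h, then 1955, 2156, 2764 and 2448 at 24 h and 2387, 3237, 3135 and 2271 at 72 h. The mice at 24 h all lay below the controls, while at 3 h they lay within or above the control range and at 72 h on both sides of it. The log2 fold change was 0.11 ± 0.10 at 3 h (adjusted p = 0.537), -0.37 ± 0.10 at 24 h (0.0155) and -0.13 at 72 h (0.464; edgeR), and the exact permutation test at 24 h gave p = 0.0286. Car1 was also the only gene of the 8 to differ between 3 h and 24 h (log2 fold change -0.48 ± 0.10, edgeR adjusted p = 0.00137), where 13.1% of genes passed and 8.89% as lower. None of the 8 differed between 24 and 72 h, where 2.41% of genes passed (edgeR); log2 fold changes there ran from 0.02 for Gata1 to 0.99 for Hba-a1. The Car1 call at 24 h was lost without the 24 h mouse 1 or 2 (adjusted p = 0.0613 and 0.0616, edgeR).

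Car2 was at 1718, 1339, 1970 and 1877 CPM in control, 1689, 1236, 1553 and 1022 at 3 h, then 1242, 1024, 1370 and 1210 at 24 h and 1378, 1574, 1857 and 1267 at 72 h. At 24 h 3 of 4 mice were below all controls. The log2 fold change was -0.32 ± 0.13 at 3 h (adjusted p = 0.0954), -0.50 ± 0.13 at 24 h (0.00866) and -0.18 at 72 h (0.413; edgeR). Without control mouse 3 the change at 24 h did not pass (-0.43, adjusted p = 0.057, edgeR).

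Tfrc varied widely among the controls: 74.8, 42.2, 73 and 17.2 CPM, the last from the mouse with 15 Klf1-positive cells. It was 83.4, 37.5, 41.9 and 40.8 at 3 h, then 37.5, 32.1, 44.3 and 35.5 at 24 h and 51.6, 53.0, 53.2 and 36.9 at 72 h. All groups overlapped with the controls. The fit gave -0.72 ± 0.19 on the log2 scale at 24 h (adjusted p = 0.0114), but the call was lost without control mouse 1, control mouse 3 or the 24 h mouse 2 (adjusted p = 0.0803, 0.106 and 0.0516, edgeR). The exact permutation test, which weights all mice equally, gave p = 0.629. At 3 h and 72 h the fitted log2 fold change was -0.33 each (adjusted p = 0.4 and 0.309, edgeR), whereas the mean of log2(CPM + 1) over mice was 0.10 higher than in control.

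Alas2, whose protein makes the first step of erythroid heme synthesis, was at the edge of detection. Klf1-positive control cells held 24 UMIs of Alas2 in 10 of 490 cells, 15 of them from mouse 1, 1 from mouse 2, 8 from mouse 3 and none from mouse 4. There were 2 UMIs at 24 h, in 2 of 720 cells, and none at 3 h and 72 h. The control level was 2.04 UMIs per 1000000, and a count of 0 allows up to 0.698 at 3 h and 0.304 at 72 h, and up to 1.12% and 0.588% of cells with a UMI (3 counts per library, for counting error only). All 24 control UMIs were in cluster 12, and the cell with most globin UMIs held 10 of them.

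**Figure D4:**
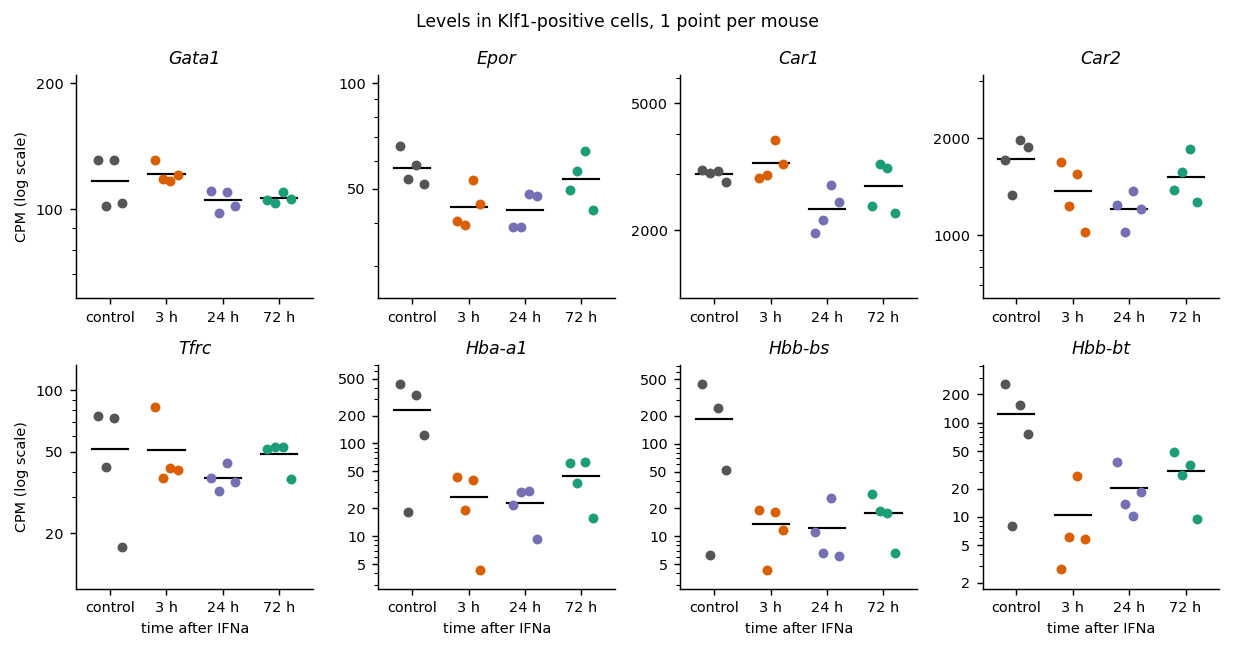
Level in Klf1-positive cells (CPM, log axis) of the 8 tested genes in each of the 16 mice, by time point, with the group mean as a line. The 24 h mice lie below all control mice for Epor and Car1, and globin levels of control mice 1 and 3 lie far above those of control mouse 2.

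The globins fell most in size and were least even between mice. Hba-a1 was at 441, 18.2, 335 and 124 CPM in control mice 1 to 4, 43.1, 19.2, 40.4 and 4.37 at 3 h, then 21.9, 29.7, 30.7 and 9.25 at 24 h and 60.8, 37.6, 62.5 and 15.8 at 72 h. Control mouse 2 lay inside the treated range, and the other 3 control mice lay above all 12 treated mice. Hbb-bs was at 446, 6.25, 243 and 51.7 CPM in control, 19.5, 4.36, 18.4 and 11.6 at 3 h, then 11.1, 6.64, 25.7 and 6.11 at 24 h and 28.4, 18.8, 17.7 and 6.63 at 72 h. Again control mice 1, 3 and 4 lay above all treated mice and control mouse 2 did not. Hbb-bt was at 258, 8.07, 155 and 75.8 CPM in control, 2.78, 6.11, 27.2 and 5.82 at 3 h, then 38.5, 13.8, 10.3 and 18.5 at 24 h and 49.5, 27.7, 35.4 and 9.53 at 72 h, with the same order of control mice.

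In the fit, Hba-a1 fell by 3.15 ± 0.68 on the log2 scale at 3 h, then by 3.47 ± 0.54 at 24 h and by 2.47 ± 0.53 at 72 h (adjusted p = 0.00137, 7.53e-05 and 0.00274, edgeR). Hbb-bs fell by 4.0 ± 0.87, by 4.2 ± 0.65 and by 3.52 ± 0.66 (0.00143, 6.61e-05 and 0.000733), and Hbb-bt fell by 3.42 ± 0.81, by 2.82 ± 0.54 and by 2.10 ± 0.54 (0.00321, 0.000826 and 0.0125; edgeR). The second alpha globin gene, Hba-a2, which shares most of its 3′ end with Hba-a1, fell by 3.25, 3.68 and 2.98. Leaving out any single mouse kept the calls of Hba-a1, Hbb-bs and Hbb-bt except that of Hbb-bt at 72 h, which did not pass without control mouse 1 (-1.39, adjusted p = 0.121) or without the 72 h mouse 4 (-1.80, adjusted p = 0.0511, edgeR). The exact permutation test of the values per mouse did not pass for any globin at 24 h (p = 0.114 for Hba-a1 and Hbb-bs, 0.171 for Hbb-bt), control mouse 2 being as low as treated mice. Of 24 such tests of the 8 genes, 2 gave an unadjusted p under 0.05, those of Epor and Car1 at 24 h named above.

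A few cells carried most globin counts. In control mouse 1, 4896 globin UMIs (Hba-a1, Hba-a2, Hbb-bs and Hbb-bt together) were found in its Klf1-positive cells, 2679 of them (54.7%) in a single cell and 73% in 3 cells. In control mouse 3, 77.8% of 3686 globin UMIs were in 3 cells. Control mouse 2 had 158 globin UMIs in all, and control mouse 4 had 88, of which 70 were in 1 cell. The median Klf1-positive cell had 0 in every mouse. Klf1-positive cells with at least 100 globin UMIs numbered 7 and 5 in control mice 1 and 3, 1 each in the 24 h mice 2 and 3 and the 72 h mice 1 and 3, and none at 3 h. The richest cell, from control mouse 1 and cluster 12, held 731 UMIs of Hba-a1, 239 of Hba-a2, 1162 of Hbb-bs, 547 of Hbb-bt and 10 of Alas2 among 38466.

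Without the 3 cells of most globin UMIs, all from control mice 1 and 3, the log2 fold changes at 24 h were smaller but passed: -2.52 for Hba-a1, -2.46 for Hbb-bs and -1.59 for Hbb-bt (adjusted p = 0.000619, 0.00276 and 0.0306, edgeR). All 3 globins also passed at 3 h, at -2.20, -2.27 and -2.19. At 72 h Hba-a1 (-1.53) and Hbb-bs (-1.80) passed, and Hbb-bt did not (-0.86, adjusted p = 0.276, edgeR). The numbers of genes passing, of the 8, were then 3, 7 and 2. The share of all genes passing in this fit is not reported here. With these 3 cells included it was 17.3%, 12.9% and 10.7% of 9546 genes.

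Globins were also counted per cell instead of per UMI. A Klf1-positive cell was counted as above background where its summed globin UMIs per 10000 exceeded the 99th percentile of the Klf1-negative myeloid progenitor-like cells of its library, which was 0.744 in control, 0.596 at 3 h, then 1.22 at 24 h and 0.625 at 72 h. The share above background was 20.3%, 8.28%, 19.4% and 20.0% in control mice 1 to 4 and 5.36%, 6.99%, 6.29% and 9.09% at 24 h. Those are means of 17.0% ± 5.82 and 6.93% ± 1.59 (difference -10.1 percentage points, two-sided exact permutation test p = 0.0571, 0.171 adjusted over the time points). At 3 h the mean was 11.6% ± 1.65 (adjusted p = 0.214, exact permutation test) and at 72 h 12.9% ± 4.16 (0.286). The background itself was highest in the 24 h library. With 10 globin UMIs per cell as the limit in every library, the differences were -7.41, -6.72 and -6.34 percentage points at 3, 24 and 72 h. With the 95th percentile as background they were -9.26, -4.11 and -9.34, and with cells thinned to 5000 UMIs -11.1, -8.10 and -1.61, so that the time of the largest difference depends on this choice.

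The calls at 24 h and 72 h were lost without cluster 12 for the genes that could still be tested. Hba-a1 could not be tested without it, and Car1 also fell at 24 h in cluster 10 alone, as given below. Of clusters 10 and 12, cluster 12 was singled out for having more globin UMIs per control cell. Fits with or without it are therefore no independent support for a fall of the globins. Cluster 12 held 16.3% ± 3.52 of the Klf1-positive cells of a control mouse, 8.79% ± 6.39 at 3 h, then 10.6% ± 2.95 at 24 h and 12.2% ± 4.01 at 72 h (n = 4 each), with no such cell in the 3 h mouse 4. These shares rest on labels given to treated cells without a correction between libraries. When the Klf1-positive cells of this cluster were left out, 16.7%, 5.79% and 7.55% of 9222 genes passed at 3, 24 and 72 h, and of the 7 genes still tested none passed at 24 h or 72 h. At 24 h Epor was then at -0.04, Car2 at 0.02, Tfrc at -0.13 and Car1 at -0.29 (adjusted p = 0.108, edgeR). At 3 h Car2 (0.34 ± 0.09, edgeR adjusted p = 0.00452) and Hbb-bs (1.44 ± 0.51, 0.045) passed as higher. All 267 Klf1-positive cells at 3 h, with cluster 12 included, held 52 UMIs of Hbb-bs. The value for Hbb-bs therefore rests on few counts and was not told apart from droplet background.

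Within cluster 12, which was singled out by its globin UMIs in control, the globins fell as well. In the fit of this cluster alone, over 14 mice with at least 3 such cells, Hba-a1 fell by 2.36, by 2.68 and by 2.07 on the log2 scale at 3, 24 and 72 h (adjusted p = 0.00632, 6.69e-05 and 0.00166, edgeR). Hbb-bs fell by 4.18, 3.97 and 3.27 and Hbb-bt by 2.99, 2.69 and 1.87, all passing, against 7.60%, 5.42% and 3.00% of 6471 genes. Car2 fell at 24 h by 0.26 (adjusted p = 0.026, edgeR). Epor, at 107 ± 12.4 CPM in control and 84.5 ± 16.7 at 24 h, had a log2 fold change of -0.31 (edgeR adjusted p = 0.258), and Car1 (-0.14) and Tfrc (-0.46, adjusted p = 0.118) did not pass either. In cluster 10 alone, Car1 fell at 24 h by 0.36 (adjusted p = 0.0096), Tfrc rose at 3 h by 0.73 (adjusted p = 0.0383) and no member passed at 72 h, against 11.2%, 4.86% and 4.39% of 6377 genes (edgeR).

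Markers of other cells moved with the time points in the Klf1-positive cells. The summed CPM of 19 myeloid progenitor markers, all of them detected, was 2598 in control, 355 at 3 h, then 2083 at 24 h and 1019 at 72 h, and that of 12 MK progenitor markers was between 359 and 720. The Ba/MC/Eo progenitor list summed to between 295 and 727 CPM, and the B, T and NK cell list to between 164 and 329, with 6 of its 8 markers in the files detected and Pax5 and Cd3e at 0. In cluster 12 the myeloid markers summed to between 51.4 and 125 CPM, with Fcnb, Ngp, Ltf and Camp at 0, and the erythroid list to between 10264 and 14245. The part of these other markers in the values of the whole Klf1-positive set was not tested.

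Most heme synthesis genes fell at 3 h and 24 h. Of 13 such genes 8 passed as lower at 3 h, then 11 at 24 h and 4 at 72 h, and none as higher, with list medians of -0.58, -0.60 and -0.37 on the log2 scale beside -0.03, 0.01 and 0.02 over all genes. Cpox, which makes protoporphyrinogen, averaged 160 CPM in control, 85.4 at 3 h, then 82.6 at 24 h and 112 at 72 h, with log2 fold changes of -0.87, -0.93 and -0.49. Glrx5, needed for iron-sulfur clusters, averaged 517, 339, 305 and 355 CPM and changed by -0.60 at 3 h, -0.76 at 24 h and -0.54 at 72 h. Alas1, the housekeeping relative of Alas2, was lowest at 3 h (54.1 CPM in control, 13.8 at 3 h, log2 fold change -1.70, adjusted p = 0.00353, edgeR); it also led the myeloid progenitor-like cluster 1. Other members of the list named by size were the mitochondrial iron carrier Slc25a37 at 3 h (-0.83), Ppox, the next enzyme after Cpox, at 24 h (-0.70), and Alad at 72 h (-0.38). Without cluster 12, 1, 1 and 2 of the 13 fell, and in cluster 12 alone 3, 7 and 1. Of all genes, 6.38%, 5.45% and 4.71% passed as lower in the whole set at the 3 times. In either direction 16.7%, 5.79% and 7.55% passed without cluster 12, and 7.60%, 5.42% and 3.00% in cluster 12 alone.

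Genes of the red cell membrane and blood groups were also lower, with 9, 12 and 2 of 18 tested lower at 3, 24 and 72 h and none higher, and list medians of -0.56, -0.74 and -0.26. Cldn13 averaged 108 CPM in control, 35.9 at 3 h, then 37.8 at 24 h and 64.5 at 72 h, and Rhd, the Rh antigen, 156, 63.6, 51.0 and 90.5. Sptb, erythroid beta spectrin, fell by 2.20 on the log2 scale at 24 h (adjusted p = 0.0019, edgeR). At 72 h Tspan33 (-0.48) and Bsg (-0.26) passed. Without cluster 12, 16 of these genes were tested, of which 3 fell and 2 rose at 3 h, 4 fell at 24 h and 1 rose at 72 h, with medians of 0.0035, -0.27 and -0.05. In cluster 12 alone, 3 of 17 fell and 1 rose at 3 h, 7 fell at 24 h and none passed at 72 h. Of 12 iron handling genes, 3, 6 and 3 passed as lower and 1, Pcbp2, as higher, at 3 h (0.27). The iron exporter Slc40a1 was at -0.74 at 3 h and -0.65 at 24 h. The endosomal reductase Steap3 was at -0.56 and the transporter Slc11a2 at -0.46 at 24 h. The ferritin subunits Fth1 and Ftl1 were at -0.38 and -0.27 at 3 h, -0.44 and -0.24 at 24 h and -0.32 and -0.21 at 72 h. Isca1, an iron-sulfur cluster protein of this list, was at -0.42 at 24 h and -0.47 at 72 h. Without cluster 12, 1 of the 12 fell at each time point and 1 rose at 3 h. In that fit 16.7%, 5.79% and 7.55% of 9222 genes passed in either direction. For both lists, the background in the whole set is that 6.38%, 5.45% and 4.71% of 9546 genes passed as lower.

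Among transcription factors and genes of erythropoietin signalling few were lower in the whole Klf1-positive set. Of 18 erythroid transcription factors 2 were lower at 3 h, E2f4 (-0.40) and Lmo2 (-0.30). At 24 h Foxo3 (-0.36), E2f4 (-0.35) and Ldb1 (-0.27) were lower and Nfe2 (0.36, adjusted p = 0.00486, edgeR) was higher, and none passed at 72 h. Of all genes, 6.38%, 5.45% and 4.71% passed as lower. Without cluster 12, 5 of the 18 were lower at 3 h and 3 at 24 h, where 16.7% and 5.79% of genes passed in either direction. In cluster 12 alone 1 of 16 was lower at 3 h and 1 at 24 h. No transcription factor passed as higher in either of these fits. Of 10 tested genes of erythropoietin signalling, 4 rose at 3 h, then 2 at 24 h and 3 at 72 h, and 1, the phosphatase gene Ptpn6, fell at 3 h (-0.45). The kinase gene Pim1 rose at each time point (0.85, 0.53 and 0.43), and Sh2b3, an inhibitor of JAK2 signalling, at 3 h (0.95) and 72 h (0.87). Jak2 rose at 3 h (0.77) and Lyn at 3 h (0.50) and 24 h (0.41). Kit, the stem cell factor receptor, averaged 76.3 CPM in control and 119 at 72 h (0.62, adjusted p = 9.38e-05, edgeR). In cluster 12 alone none of 7 tested genes of erythropoietin signalling rose at any time, and without cluster 12 2, 0 and 1 of the 10 rose. Among 3 tested other carbonic anhydrases, Car13 rose at 3 h (1.34) and Car3 at 24 h (0.67). Of all genes, 10.9%, 7.49% and 6.02% passed as higher in the whole Klf1-positive set at 3, 24 and 72 h.

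In Klf1-negative cells several of the same genes rose. At 3 h Gata1 (0.76), Car1 (0.62) and Car2 (0.52) rose, at 24 h Car2 (0.61), Epor (0.64) and Hbb-bt (0.96) rose and Tfrc fell by 0.52, and at 72 h Gata1 (0.48), Car2 (0.54), Epor (0.84) and Hbb-bt (0.77) rose, all on the log2 scale and at an adjusted p under 0.05 (edgeR). Of these, Car2, Epor and Hbb-bt at 24 h and Hbb-bt at 72 h passed as lower in Klf1-positive cells at the same time. Gata1, Car1 and Car2 did not pass there at 3 h, nor Gata1, Car2 and Epor at 72 h, and Tfrc fell in both sets at 24 h. For each of these genes the values per mouse of Klf1-negative cells overlapped those of control. Epor was low in them, at means of 3.69 CPM in control (1.95 to 7.04 over mice), 4.14 at 24 h and 4.86 at 72 h. For Epor no mouse at 24 h or 72 h lay above all controls. Hbb-bt at 24 h ran from 13.1 to 48.9 CPM, against 14.0 to 24.6 in control. In the Klf1-negative cells 37.6%, 25.5% and 35.7% of 11775 genes passed, and 19.4%, 13.6% and 18.2% passed as higher. Hba-a1 and Hbb-bs stood at means of 1.39 to 3.53 and 2.79 to 6.89 CPM there, a level read as droplet background, and their log2 fold changes of 1.30 at 72 h and 1.05 at 24 h, which passed, are not read as expression. The counts were not even. At 24 h a Klf1-negative cell outside the myeloid progenitor-like clusters held up to 19 UMIs of Hba-a1 or 37 of Hbb-bs, against 4 and 9 inside them. Whether all these counts are background was not tested. The difference of the change between Klf1-positive and Klf1-negative cells of the same mice was tested directly. It passed for 5 of the 8 genes at 3 h, then 6 at 24 h and 3 at 72 h, each with a lower value in Klf1-positive cells, against 2.10%, 1.85% and 0.396% of 11111 genes in either direction and 1.42%, 1.04% and 0.216% in that direction. It passed for the 3 globins at all time points, for Car2 at 3 h and 24 h, for Gata1 at 3 h and for Car1 and Epor at 24 h. For Hba-a1 and Hbb-bs it sets Klf1-positive cells against a background that itself differs between libraries. For Hbb-bt, 47.9% of the UMIs of Klf1-negative cells lay in 69 cells. Whether those reads are Hbb-bt transcripts was not tested. Without the 3 h mouse 2 none of the 8 passed at 3 h, and without control mouse 1, control mouse 3 or the 3 h mouse 3 or 4 2 did, and without the 3 h mouse 1 3 did. The Klf1-negative cells hold all other clusters in shares that differ between libraries, and the part of those shares was not tested. A cell without a Klf1 UMI can also be a Klf1-expressing cell of low depth, and depth differed between libraries. The part of depth in these changes and differences was not tested either.

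Hbb-bt was unevenly spread among Klf1-negative cells. Its levels by cluster are given here per 1000000 UMIs of the cluster's Klf1-negative cells, pooled over all mice and without TMM factors. In Klf1-negative cells it stood at 99.3 CPM in cluster 8, 64.0 in cluster 2, 28 in cluster 6, 22.9 in cluster 9, 20.2 in cluster 3 and 18.2 in cluster 4, but at 0.771 to 2.01 in the myeloid progenitor-like clusters 1, 5 and 7 of the same libraries. Cluster 2 was led by Wfdc17, Dntt and Hlf among others, and cluster 8 by Jchain, Cd79a, Mzb1 and Ebf1 beside Ly6a and Hlf, so that B cell and stem cell genes occur together and the cluster is left without a name. The ratio to Hba-a1 differed too: 14.2 UMIs of Hbb-bt per UMI of Hba-a1 in cluster 2 and 14.5 in cluster 8, against 0.893 in cluster 1. The Klf1-positive cells of cluster 12 held 4153 UMIs of Hba-a1, 3113 of Hbb-bs and 2173 of Hbb-bt.

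Of 8059 Klf1-negative cells, 69 (0.856%) had at least 10 UMIs of Hbb-bt, and these held 47.9% of all Hbb-bt UMIs of Klf1-negative cells. Of the 69 cells 67 had no UMI of Hba-a1, 66 lay in clusters 2, 3, 6 and 8, 4 had a UMI of Car1 and 3 one of Gata1, at a median of 14336 UMIs. None of 2026 Klf1-negative myeloid progenitor-like cells reached 10, the highest having 3. The richest of them, a cell of the 24 h mouse 1 in cluster 3, had 102 UMIs of Hbb-bt and none of Hba-a1 or Hbb-bs. They were found at every time point, 16 in control, 7 at 3 h, then 35 at 24 h and 11 at 72 h, which is 1.17% ± 0.816, 0.485% ± 0.161, 1.27% ± 0.749 and 0.582% ± 0.208 of a mouse's Klf1-negative cells. The groups overlapped. Whether these are Hbb-bt transcripts or reads of another sequence assigned to the gene was not tested.

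**Figure D5:**
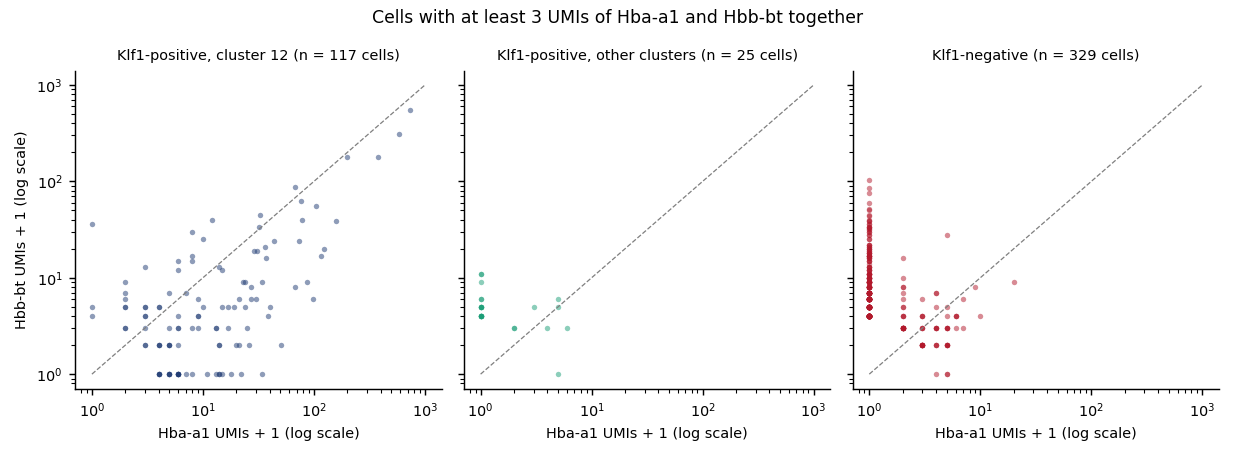
UMIs of Hbb-bt against UMIs of Hba-a1 per cell (both axes logarithmic after adding 1) for cells with at least 3 UMIs of both genes together. Of 329 Klf1-negative cells 287 have more Hbb-bt than Hba-a1 and 256 have no Hba-a1, whereas of 117 Klf1-positive cells of cluster 12 these numbers are 28 and 3.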

How the data were processed

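Droplet single-cell RNA was measured in 4 libraries, 1 per time point, each with a hashtag library. The authors deposited raw UMI counts per gene and barcode, aligned and counted with Cell Ranger 3.1.0 on mm10 per the labels, and hashtag calls and hashtag counts per barcode from Seurat. The gene annotation used is not given in the sources used here. Barcodes with a single hashtag, at most 5% mitochondrial UMIs and at least 700 genes were kept, which removes hashtag multiplets but not doublets of 1 mouse. A hashtag within a library marks 1 mouse, and the mouse was the replicate.

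Control cells were clustered with Scanpy 1.11.5 and leidenalg 0.10.2 under Python 3.11.15 on 500 variable genes without the members, and treated cells took the most common label of 15 nearest control cells. The nearest cells were found in 100 components without a correction between libraries, whereas the study integrated them with Scanorama first. How far the interferon response moved these labels was not tested. Clusters were named from fixed markers, 2 or more of which had to be among the 10 genes of largest fold. The erythroid markers include the members. UMI counts were summed per mouse over cells (at least 10) and tested with edgeR 4.0.16 under R 4.3.3 (filterByExpr, TMM factors, quasi-likelihood test over all mice, Benjamini-Hochberg adjustment over all genes tested). Limma 3.58.1 and DESeq2 1.42.0 served as alternatives. A gene passed at an adjusted p under 0.05. In the fits by single cluster at least 3 cells of a mouse were required. The tests were checked on simulated counts. The kept UMIs of a mouse set the precision, and control mouse 4 has the fewest cells.

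The genes named are the 10 members, from each list the 3 of largest rise and of largest fall at each time point among those that passed, the 5 most like Klf1, and Isg15 and Irf7; 1 gene that this rule names is not reported here. The members, lists and tests were chosen with earlier results of these data known. Fits without cluster 12, of cluster 12 or 10 alone and without the cells of most globin were added after the data were seen. No column of samples outside the series was found, and 0 were used.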

Additional observations from a re-analysis of the deposited data

Results flagged for a closer look

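Among 56 groups of 4 mice, 4 held a mouse far from the other 3, and chance alone gives about 1 in 20. Tfrc in Klf1-positive cells at 3 h was at 83.4 CPM in mouse 1 and between 37.5 and 41.9 in the others, and at 72 h at 36.9 CPM in mouse 4 and between 51.6 and 53.2 in the others. Hbb-bt at 3 h was at 27.2 CPM in mouse 3 and between 2.78 and 6.11 in the others. The share of Klf1-positive control cells with globin above background was 8.28% in mouse 2 and between 19.4% and 20.3% in the others.

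The change against control differed between Klf1-positive and Klf1-negative cells of the same mice in 14 cases (interaction term, edgeR, adjusted p under 0.05), given as log2 differences, Klf1-positive minus Klf1-negative. At 3 h these were Gata1 at -0.84, Car2 at -0.90, Hba-a1 at -3.96, Hbb-bs at -4.79 and Hbb-bt at -3.63. At 24 h they were Car1 at -0.82, Car2 at -1.10, Epor at -1.13, Hba-a1 at -4.22, Hbb-bs at -5.23 and Hbb-bt at -3.46. At 72 h they were Hba-a1 at -3.85, Hbb-bs at -4.52 and Hbb-bt at -2.65. Without the 3 h mouse 2 none of the 5 at 3 h passed, and the Hba-a1 and Hbb-bs levels of Klf1-negative cells are read as droplet background.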

How the results depend on the processing

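Calls moved with the cells chosen, depth, scaling and filter, and the cause was not tested. Genes passing at 3, 24 and 72 h were 1649, 1235 and 1025, and genes of the 8 passing were 3, 7 and 3. Without cluster 12 they were 534 at 24 h, with 0 of the genes described passing at 24 h and 0 at 72 h, and 3 from 3 h to 24 h. In cluster 10 alone they were 714, 310 and 280 with 1, 1 and 0, and 3 from 3 h to 24 h and 1 from 24 h to 72 h. In cluster 12 alone they were 492, 351 and 194, with 4 at 24 h and 0 from 3 h to 24 h. In all cells of the erythroid progenitor-like clusters 425 genes passed at 72 h, and 1 of the genes described from 24 h to 72 h. Cells thinned to 5000 UMIs gave 534, 187 and 223 genes, and 0 of the described from 3 h to 24 h. At least 2 Klf1 UMIs gave 566 genes at 72 h. Scaling by library size alone, which moved the median of all genes at 3 h to -0.23, gave 3012 genes and 5 of the described at 3 h. Without a filter on low counts 6 of the described passed at 3 h, 7 at 72 h, 2 from 3 h to 24 h and 6 from 24 h to 72 h, where genes with few counts enter. The share of all genes passing in the fit without a filter is not reported here. Nor is that share for the steps between time points in the other alternatives, so these counts have no background beside them. In the main fit 13.1% of genes passed from 3 h to 24 h and 2.41% from 24 h to 72 h. The interaction fitted by limma-voom with mouse as block gave 322 genes at 24 h and 79 genes with 5 described at 72 h. Over all alternative settings, fits without 1 mouse included, the 24 h call of Tfrc was lost in 8 and kept in 23. Those of Epor and Car1 were each lost in 6 and kept in 25. That of Car2 was lost in 2, kept in 28 and of the other sign in 1.

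The sign turned in these cases. Gata1 at 3 h (0.01) was -0.19 by library size, -0.011 without a filter, -0.076 in the erythroid progenitor-like clusters and -0.14 in cluster 10. At 3 h Epor was 0.039 in cluster 10 and 0.15 without cluster 12, Car2 0.22 and 0.34, and Tfrc 0.73 and 0.44, and Hbb-bs was 1.44 without cluster 12. Car1 at 3 h was -0.094 by library size and -0.19 thinned. At 24 h without cluster 12 Car2 was 0.017, Hbb-bs 0.58 and Hbb-bt 0.75. At 72 h Gata1 was 0.0074 thinned, Epor 0.19 in cluster 10 and 0.31 without cluster 12, Car1 0.023 in each of these, Car2 0.15 and 0.11, Tfrc 0.071 in cluster 10 and Hbb-bt 0.48 without cluster 12. The difference in the share of Klf1-positive cells at 24 h was 1.42 outside clusters 2 and 8 and 0.555 with no limit on genes and mitochondrial UMIs, and at 72 h 3.62 outside clusters 2 and 8, where at 3 h it was -2.57 in place of -5.11; cluster 8 alone was left out as first planned.

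Leaving out 1 mouse in turn gave 1345 to 1709, 670 to 1489 and 567 to 1151 genes at 3, 24 and 72 h, with 3 to 5, 4 to 8 and 2 to 5 of the genes described, 1 to 1 from 3 h to 24 h and 0 to 0 from 24 h to 72 h. The lowest counts at 24 h came without control mouse 3 (670), the 24 h mouse 2 (747) and control mouse 1 (752), and at 72 h without control mouse 3 (567) and the 72 h mouse 4 (649). In all kept cells the ranges were 4080 to 4772, 2448 to 3526 and 3714 to 4609. For the interaction they were 93 to 264, 41 to 378 and 9 to 103 genes, with 0 to 6, 4 to 7 and 2 to 6 described; none was left at 3 h without the 3 h mouse 2, and 9 genes at 72 h without control mouse 1 or 3. Gata1 at 3 h ran from -0.087 to 0.076 and Car1 from -0.0013 to 0.17. The share of Klf1-positive cells ran from -6.48 to -3.57, -1.62 to 1.24 and -1.66 to 1.19 percentage points, and the share with globin from -8.27 to -4.27, -12.97 to -8.97 and -7.03 to -2.32.

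Hashtag numbers do not pair mice (24 same-number pairs had a median correlation of 0.021, 1 of them above 0.1). With the number as a replicate block 1647, 1120 and 970 genes passed, with 4, 7 and 3 of the genes described. Depth limits Alas2 and, at 15 Klf1-positive cells, control mouse 4.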
